A study of Mus musculus with 13 samples.

Results

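The microRNAs linked to lymphocyte activation mmu-miR-155-5p, mmu-miR-146a-5p and mmu-miR-146b-5p (named without the mouse prefix from here on) were followed over all 13 arrays of a mouse study of T-cell acute lymphoblastic leukaemia (T-ALL). They were taken by name, 3 of the 1122 mouse miRNAs on the array. A miRNA was tested when every array of some group showed it above background, as 229 miRNAs did. miR-155-5p and miR-146b-5p were among them, and miR-146a-5p was not.

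The 5 groups were M295, LS, ES, DP and DN. M295 is a cultured T-ALL line from C57BL/6 mice, with 1 array. LS and ES are late-stage and early-stage primary T-ALL, 3 arrays each, sorted as CD4+CD8+ cells from the spleens of C57BL/6 chimeras whose transformed bone marrow carried N1ICD, the intracellular form of Notch1. DP and DN are CD4+CD8+ and CD4-CD8- thymocytes sorted from C57BL/6 thymus, 3 biological replicates each. Ages are not stated, nor is how N1ICD was delivered, and chimeras keep cells of the host. Spleen was the source of all leukaemic cells and thymus that of all normal cells, and the effects of organ and disease cannot be told apart. The arrays measured total RNA of a sorted population, in which fewer cells of a type and less RNA per cell cannot be told apart either.

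A miRNA is a short RNA that guides repression of messenger RNAs through its seed, bases 2 to 8. miR-155 is cut from the non-coding transcript of Mir155hg, which lymphocytes and macrophages induce when activated, and its known targets include Socs1 and Inpp5d, inhibitors of cytokine and phosphoinositide signalling. miR-146a is induced by NF-kB and represses Traf6 and Irak1, signalling genes on the route to NF-kB, and so forms a negative feedback loop. miR-146b comes from another gene but has the same seed as miR-146a.

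The mature sequences are shown because the members fall into seed groups and because the miR-146 pair is hard to separate by hybridisation. Capitals mark the seed.
miR-155-5p: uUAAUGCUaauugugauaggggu
miR-146a-5p: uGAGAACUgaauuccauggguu
miR-146b-5p: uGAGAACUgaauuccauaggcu

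In RefSeq's sequences (build GRCm38.p6), in which 881 of the 1122 array names had a mature form, no other miRNA shared the seed of miR-155-5p. The seed of the miR-146 pair was held by these 2 alone. Counted from the 5′ end, miR-146a-5p and miR-146b-5p differ by G18A and U21C and are identical at 20 of 22 bases. The hairpins follow 5′ to 3′ on the gene's strand, with the mature arms in capitals, since the array also measured the 3p arms.
Mir155: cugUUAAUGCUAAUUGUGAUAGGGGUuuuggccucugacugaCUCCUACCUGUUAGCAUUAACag
Mir146: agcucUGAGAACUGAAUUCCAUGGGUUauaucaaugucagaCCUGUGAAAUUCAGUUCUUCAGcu
Mir146b: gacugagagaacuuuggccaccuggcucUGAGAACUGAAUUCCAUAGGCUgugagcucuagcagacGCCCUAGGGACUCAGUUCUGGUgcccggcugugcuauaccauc

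On GRCm38.p6 these genes lie at chr16:84714140-84714204 on the plus strand (Mir155), chr11:43374397-43374461 on the minus strand (Mir146, the source of miR-146a) and chr19:46342762-46342870 on the plus strand (Mir146b). Mir155 lies within the long non-coding RNA gene Mir155hg, chr16:84713023-84715245. The 3p arms, miR-155-3p, miR-146a-3p and miR-146b-3p, were above background on none of the 13 arrays, so all further values are of the 5p arms.

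Values are given in 2 forms. The intensity is the background-subtracted fluorescence, averaged over the spots of each probe and then over the 2 probes of a miRNA. The log2 signal is that value relative to the array's 75th percentile over 108 miRNAs measured everywhere, with a floor at -7.59. Values at the floor have no order. Between 115 (ES1) and 257 (M295) mouse miRNAs were above background per array, and no spot was saturated.

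ES1 and ES3 stood apart from the other arrays. On ES1 the negative control spots varied more, with an SD of 18.7, where no other array exceeded 7.11. ES3 had an intensity of 15629 for the myeloid miRNA miR-223-3p. On the other 5 T-ALL arrays that miRNA read between 12.7 and 24.1 and was not above background, on the DN arrays between 38.2 and 51.6, and on the DP arrays between 10.6 and 16.5. The summed level of the 2 myeloid markers, miR-223-3p and miR-223-5p, as a multiple of the array's 75th percentile, ranged from 0.00968 to 0.0107 in LS, 0.00737 to 7.23 in ES, 0.00630 to 0.00901 in DP and 0.0251 to 0.0337 in DN. miR-223-5p was above background on no array. Of the labels, the thymocyte miRNAs of the miR-181 family (4 of 4 above background on every array) were summed at 1.24 to 1.95 in LS, 0.554 to 1.62 in ES, 5.17 to 5.65 in DP and 1.27 to 1.45 in DN. LS and ES, sorted as CD4+CD8+ like DP, thus lay below all DP arrays. CD4 and CD8 themselves cannot be read from a miRNA array.

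miR-155-5p was above background on every thymocyte array and on 2 of the 6 primary T-ALL arrays. Its intensity was 12.5 on M295. The LS arrays read 69.4, 6.05 and 14.5, and the ES arrays 37.5, 4.86 and 423. The DP arrays read 181, 232 and 166, and the DN arrays 189, 222 and 175. It was above background on LS1, ES3 and all 6 thymocyte arrays, and not on M295, LS2, LS3, ES1 or ES2. Of the T-ALL arrays, 5 lay below every thymocyte array and ES3 lay above every one. The share of all tested miRNAs that separate groups in such ways is not given here. Here and below, such separation is therefore not shown to be particular to the members.

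On the log2 scale miR-155-5p was at -7.45 on M295. It was at -4.77, -7.59 and -6.80 on the LS arrays and at -5.29, -7.59 and -2.35 on the ES arrays. The DP arrays were at -3.34, -3.28 and -3.34, and the DN arrays at -3.02, -2.77 and -2.95. LS2 and ES2 were at the floor. The T-ALL groups varied more than the thymocyte groups. The group means were -6.39 ± 1.46 in LS, -5.08 ± 2.62 in ES, -3.32 ± 0.03 in DP and -2.92 ± 0.13 in DN (SD, n = 3 each).

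**Figure D1:**
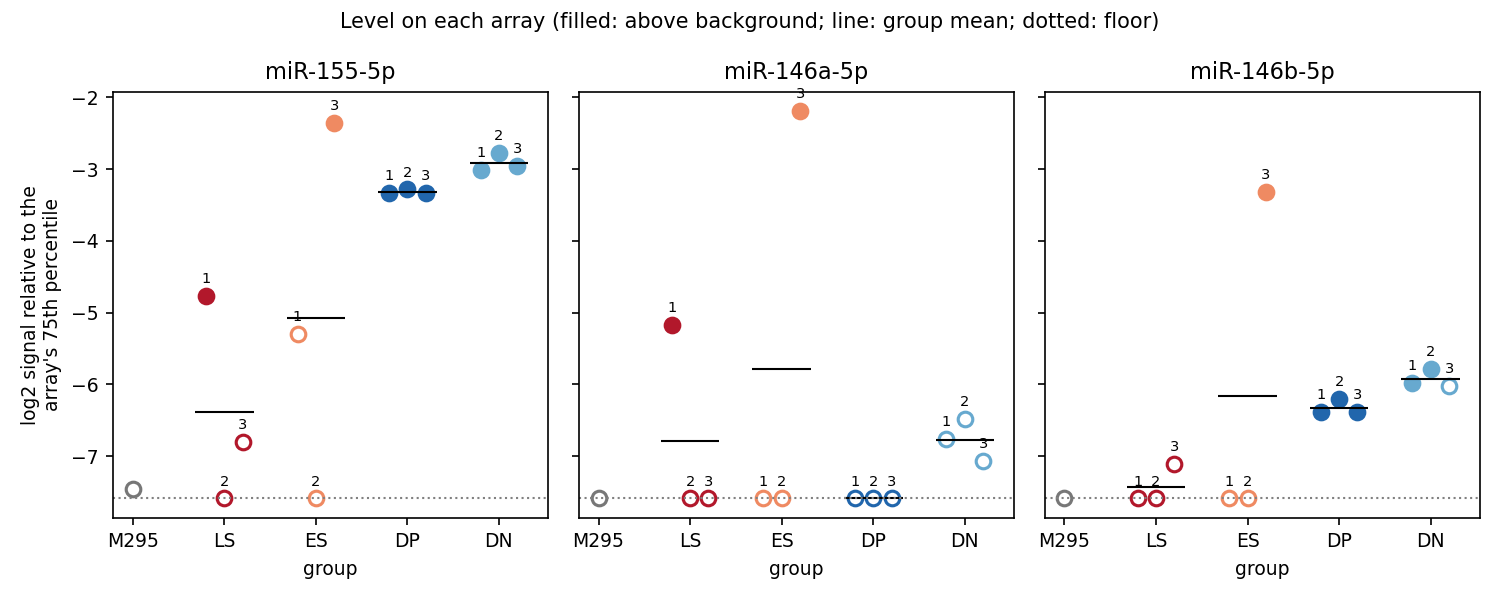
Log2 signal (relative to the array's 75th percentile) of miR-155-5p, miR-146a-5p and miR-146b-5p on each array, by group, with replicate numbers beside the points. Filled points are above background, lines are group means and the dotted line is the floor at -7.59. ES3 lies above every thymocyte array in all 3 panels, at -2.35, -2.20 and -3.32. Levels of different miRNAs are not comparable between panels.

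miR-155-5p was lower in T-ALL than in thymocytes. The 6 T-ALL arrays averaged -5.73 ± 2.03 and the 6 thymocyte arrays -3.12 ± 0.24 (SD), a log2 difference of -2.62 (SE 0.77, 95% interval -4.33 to -0.90), which is 6.13-fold. The limma fit called it at an adjusted p of 0.0146. In that comparison 57.2% of the 229 tested miRNAs were called, so a call was no rarity, and the median difference of all tested miRNAs was -0.12. A two-sided exact permutation test of the arrays gave p = 0.0152 for miR-155-5p, and 0.0455 after adjustment over the 3 members.

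ES3 narrowed this difference. Without it, the log2 difference was -3.30 (SE 0.54), and limma's adjusted p was 7.0e-04, with 67.2% of all tested miRNAs called. The call held in limma when any 1 of the 12 arrays was left out, with adjusted p up to 0.0389. The permutation call was lost without any 1 of 9 arrays (LS2, LS3, ES2 and each thymocyte array), with adjusted p up to 0.0974. The fold depends on arrays at or near background, since 4 of the 6 T-ALL arrays were not above it. With normexp the difference was -1.003 (limma adjusted p = 0.0190, permutation adjusted p = 0.0649). With all 1122 mouse miRNAs in the fit, limma's adjusted p was 0.124. Within slide 1 the difference was -3.13 with an adjusted p of 0.186 (13.1% of miRNAs called). Within slide 2, which holds ES3, it was -1.49 (65.5% of miRNAs called). LS3 (-6.80) and ES3 (-2.35) are the sole arrays of their groups there, and lie below and above every thymocyte array. The spread in that fit thus comes from the DP and DN arrays, and its calls do not measure the spread of T-ALL.

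By stage, miR-155-5p passed the test in LS and not in ES. The difference between LS and ES itself did not pass (limma adjusted p = 0.510). LS was 8.37-fold lower than DP (log2 -3.07, SE 1.09, limma adjusted p = 0.0328), where 58.5% of tested miRNAs were called. LS was also 11.1-fold lower than DN (log2 -3.47, limma adjusted p = 0.0318), where 33.2% were called. All 3 LS arrays were below all 3 DP and all 3 DN arrays. These are fitted folds and not bounds, since LS2 was at the floor and LS3 not above background. With normexp background correction the differences were -1.20 against DP (limma adjusted p = 0.0336) and -1.59 against DN (limma adjusted p = 0.0221). With the slide as a block, the limma adjusted p was 0.0583 against DP and 0.0559 against DN. Both calls were also lost without the floor and with all mouse miRNAs in the fit (limma adjusted p from 0.0641 to 0.269). Leaving out LS2, LS3 or any 1 DP array ended the LS against DP call, with adjusted p up to 0.111. The LS against DN call ended without LS2, LS3, DP1, DP3 or any 1 DN array, with adjusted p up to 0.109.

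ES differed from DP by -1.76 on the log2 scale (SE 1.09, 95% interval -4.18 to 0.66, limma adjusted p = 0.199), with 46.3% of miRNAs called in that comparison. ES differed from DN by -2.16 (95% interval -4.58 to 0.25, limma adjusted p = 0.222), with 6.55% called. In both, ES1 and ES2 lay below all 3 thymocyte arrays and ES3 above them. Without ES3 the differences were -3.12 against DP (limma adjusted p = 0.00933, 52.4% called) and -3.53 against DN (limma adjusted p = 0.0213, 10% called). Within slide 2, where ES3 is the sole ES array and its spread is taken from the other groups, ES was higher than DP by 0.96 (limma adjusted p = 0.00585, 72.1% called). Within slide 1, where ES1 and ES2 lie, ES differed from DP by -3.10 (limma adjusted p = 0.362, 12.7% called).

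Neither the leukaemia stages nor the thymocyte stages were separated by miR-155-5p in the fit of 12 arrays. LS differed from ES by -1.31 (95% interval -3.73 to 1.11, limma adjusted p = 0.510), with 2.62% of miRNAs called, and the 2 groups overlapped. Without ES3 that difference was 0.06 (95% interval -1.74 to 1.85). DP differed from DN by -0.41 (95% interval -2.82 to 2.01, limma adjusted p = 0.806), with 29.3% called, although all 3 DP arrays lay below all 3 DN arrays. Ordered by mean level, miR-155-5p ran DN, DP, ES, LS and M295. In that order the neighbours DN and DP, DP and ES, and ES and LS were not called in the fit. The fit pools the spread of the groups, and the SD was 2.62 in ES and 1.46 in LS. DP and DN, with SDs of 0.03 and 0.13, were thus judged against a spread much wider than their own.

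**Figure D2:**
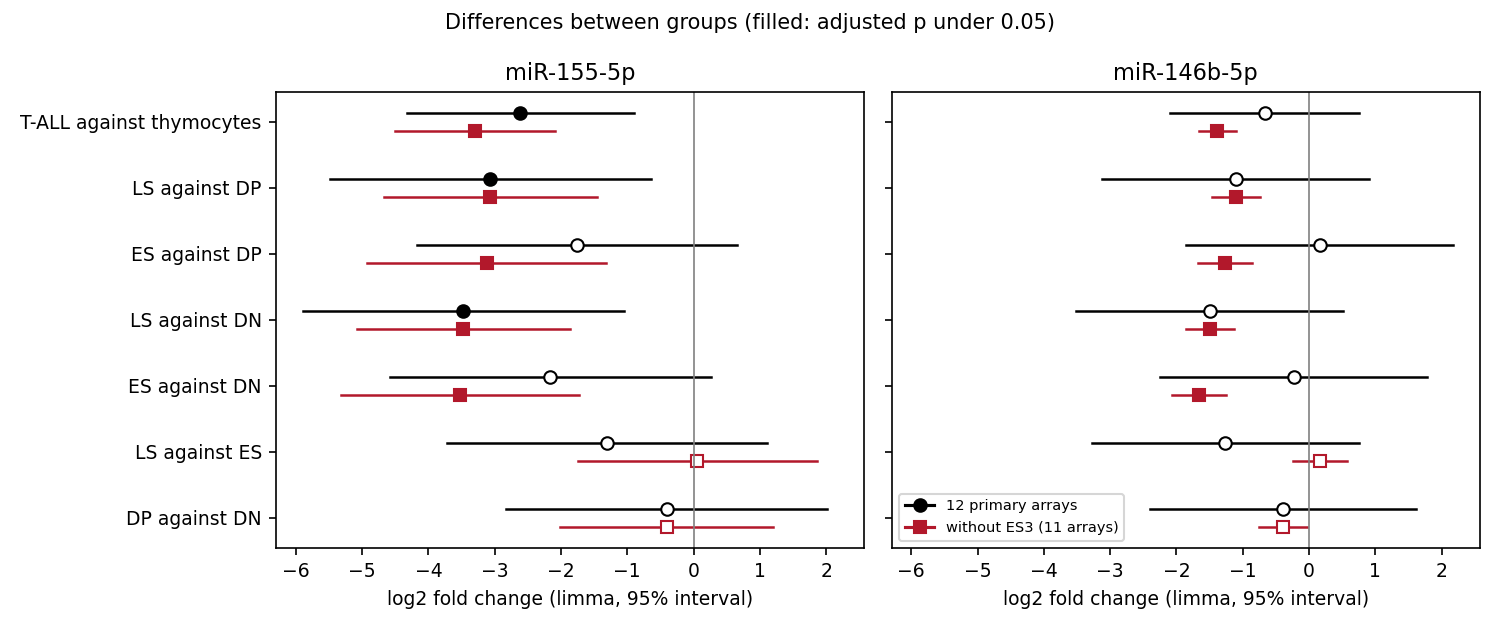
Log2 fold changes of miR-155-5p (left) and miR-146b-5p (right) from limma with 95% intervals, for 7 comparisons, over the 12 primary arrays (circles) and over 11 arrays without ES3 (squares). Filled symbols have an adjusted p under 0.05. For T-ALL against thymocytes, miR-155-5p moves to -3.30 from -2.62 without ES3, and miR-146b-5p to -1.38 from -0.67.

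miR-146a-5p had no level above background in any thymocyte sample. Its intensity was -0.170 on M295. The LS arrays read 52.3, 2.59 and 3.14, and the ES arrays 0.205, -1.89 and 472. The DP arrays read -1.05, 0.412 and -1.37, and the DN arrays 14.1, 17.1 and 10.1. LS1 and ES3 were the arrays above background, and they lay above every thymocyte array. LS1 and ES3 were also the 2 T-ALL arrays above background for miR-155-5p.

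On the log2 scale, LS1 was at -5.18 and ES3 at -2.20 for miR-146a-5p. M295, the other 4 T-ALL arrays and all 3 DP arrays were at the floor. The DN arrays, not above background, were at -6.77, -6.48 and -7.07, all above the 3 DP arrays. The measured means were -6.29 ± 2.23 in T-ALL and -7.18 ± 0.49 in thymocytes (SD, n = 6 each), with 2 of 6 T-ALL arrays above background. With each thymocyte array raised to at least its lowest signal above background, T-ALL was 1.80-fold higher. This fold is not a lower limit, since the other 4 T-ALL arrays were at the floor and may lie lower. A two-sided exact permutation test gave p = 0.5 (adjusted 0.5), and the difference is carried by LS1 and ES3. Leaving out 1 array brought the log2 difference as low as 0.07. Taken the same way, with the same limit, the fold of ES over DP was 3.28, from 1 of 3 arrays. That of LS over DP was 1.65, also from 1 of 3. For ES over DN it was 1.97, from 1 of 3, and LS over DN gave no fold (log2 -0.01). In both stages 2 of 3 arrays lay below all 3 DN arrays and 1 above them.

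The 2 arrays with miR-146a-5p above background differed from each other in the myeloid marker. miR-223-3p, carried mainly by granulocytes and their precursors, had a log2 signal of 2.85 on ES3 and of -6.64 on LS1, where it was not above background. The part of myeloid cells in the level on ES3 was not tested. On LS1 the level of miR-146a-5p stood beside a myeloid summed level no higher than 0.0107. LS1 and ES3 were alike in the mature lymphocyte markers miR-150-5p, miR-342-3p and miR-342-5p. Their summed level was 0.625 on ES3 and 0.379 on LS1, with 3 of 3 above background on each. The other primary T-ALL arrays ranged from 0.156 (ES2) to 0.248 (ES1), with 1 or 2 above background. M295, without miR-146a-5p above background, had 0.466 and also 3 of 3. The part of mature lymphocytes in these levels was not tested.

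miR-146b-5p was dim, and above background on 1 T-ALL array and 5 of 6 thymocyte arrays. Its intensity was 0.609 on M295. The LS arrays read 0.236, 9.67 and 11.8, and the ES arrays 3.12, 8.29 and 217. The DP arrays read 22.0, 30.7 and 19.99, and the DN arrays 24.2, 27.6 and 20.8. It was above background on ES3, the 3 DP arrays, DN1 and DN2. As for miR-155-5p, 5 of 6 T-ALL arrays lay below every thymocyte array and ES3 lay above every one. The place of ES1 is less sure, since its brighter probe read 17.3 ± 29.9 (SD over spots). The lowest log2 signal above background on ES1, -6.18, exceeded all 3 DP arrays. A level like that of DP could thus not have passed as above background there.

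On the log2 scale miR-146b-5p was at the floor on M295, LS1, LS2, ES1 and ES2. LS3 was at -7.10 and ES3 at -3.32. The DP arrays were at -6.38, -6.20 and -6.39, and the DN arrays at -5.99, -5.79 and -6.02. The means were -7.43 ± 0.28 in LS, -6.17 ± 2.47 in ES, -6.33 ± 0.11 in DP and -5.93 ± 0.13 in DN (SD, n = 3 each). Ordered by mean, the groups ran DN, ES, DP, LS and M295, and no pair of neighbours among the first 4 was called in the fit. The fit pools the spread of the groups, of which ES had by far the widest.

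With all 12 arrays no comparison called miR-146b-5p. T-ALL averaged -6.80 ± 1.72 and thymocytes -6.13 ± 0.24 (SD, n = 6 each), a log2 difference of -0.67 (SE 0.64, 95% interval -2.09 to 0.75, limma adjusted p = 0.403). The two-sided exact permutation test gave p = 0.437 (adjusted 0.5). ES differed from DP by 0.16 (limma adjusted p = 0.887) and from DN by -0.23 (limma adjusted p = 0.922). LS, above background on no array, was at least 2.05-fold lower than DP (3 of 3 DP arrays above background, limma adjusted p = 0.312). Taken the same way, LS was 2.69-fold lower than DN (2 of 3 above, limma adjusted p = 0.254). This fold is not a lower limit, since DN3 was not above background. All 3 LS arrays lay below all 6 thymocyte arrays.

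The result for miR-146b-5p turned on ES3. Without it, T-ALL was lower than thymocytes, with a log2 difference of -1.38 (SE 0.12, limma adjusted p = 4.2e-05). ES was then lower than DP (-1.27, limma adjusted p = 3.5e-04) and DN (-1.66, limma adjusted p = 4.5e-04), and LS lower than DP (-1.10, limma adjusted p = 2.9e-04) and DN (-1.50, limma adjusted p = 1.6e-04). These are fitted differences and not bounds, since LS1, LS2, ES1 and ES2 were at the floor. ES1 could not have shown a level like that of DP above background, so its floor value does not show a lower level. Equal floor values add no spread, so these SEs and p-values do not measure the spread of those arrays. ES3 also had the highest level of this miRNA, so leaving it out removed most of the spread in T-ALL. In the fit without ES3, 52.4% of all tested miRNAs were called for ES against DP, 71.6% for LS against DP and 51.1% for LS against DN. Within slide 1 the T-ALL difference was -1.41 and within slide 2, which holds ES3, it was 0.89. DP1 and DN1 are the sole arrays of their groups on slide 1, and LS3 and ES3 on slide 2. Those groups thus have no spread of their own there. In a fit of the DP and LS arrays alone, with the replicate number as a block, LS was lower than DP at a limma adjusted p of 0.0103, where 68.6% of miRNAs were called.

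Each member was read by 2 probes, with 15 to 20 kept spots per probe and array. On the 7 arrays where both probes of miR-155-5p were above background, the brighter gave 3.16 to 4.13 times the signal of the dimmer. The brighter probe of miR-155-5p read 108 ± 11.6 on LS1, 652 ± 27.2 on ES3, 252 to 360 on the DP arrays and 275 to 350 on the DN arrays (mean ± SD over spots on single arrays). On ES1 the same probe read 68.7 ± 33.3, with the noisy background of that array. For miR-146a-5p the brighter probe read 84.2 ± 10.8 on LS1 and 783 ± 16.5 on ES3, and for miR-146b-5p the brighter probe read 370 ± 18.9 on ES3. Both probes of every member thus placed ES3 highest among the 13 arrays.

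**Figure D3:**
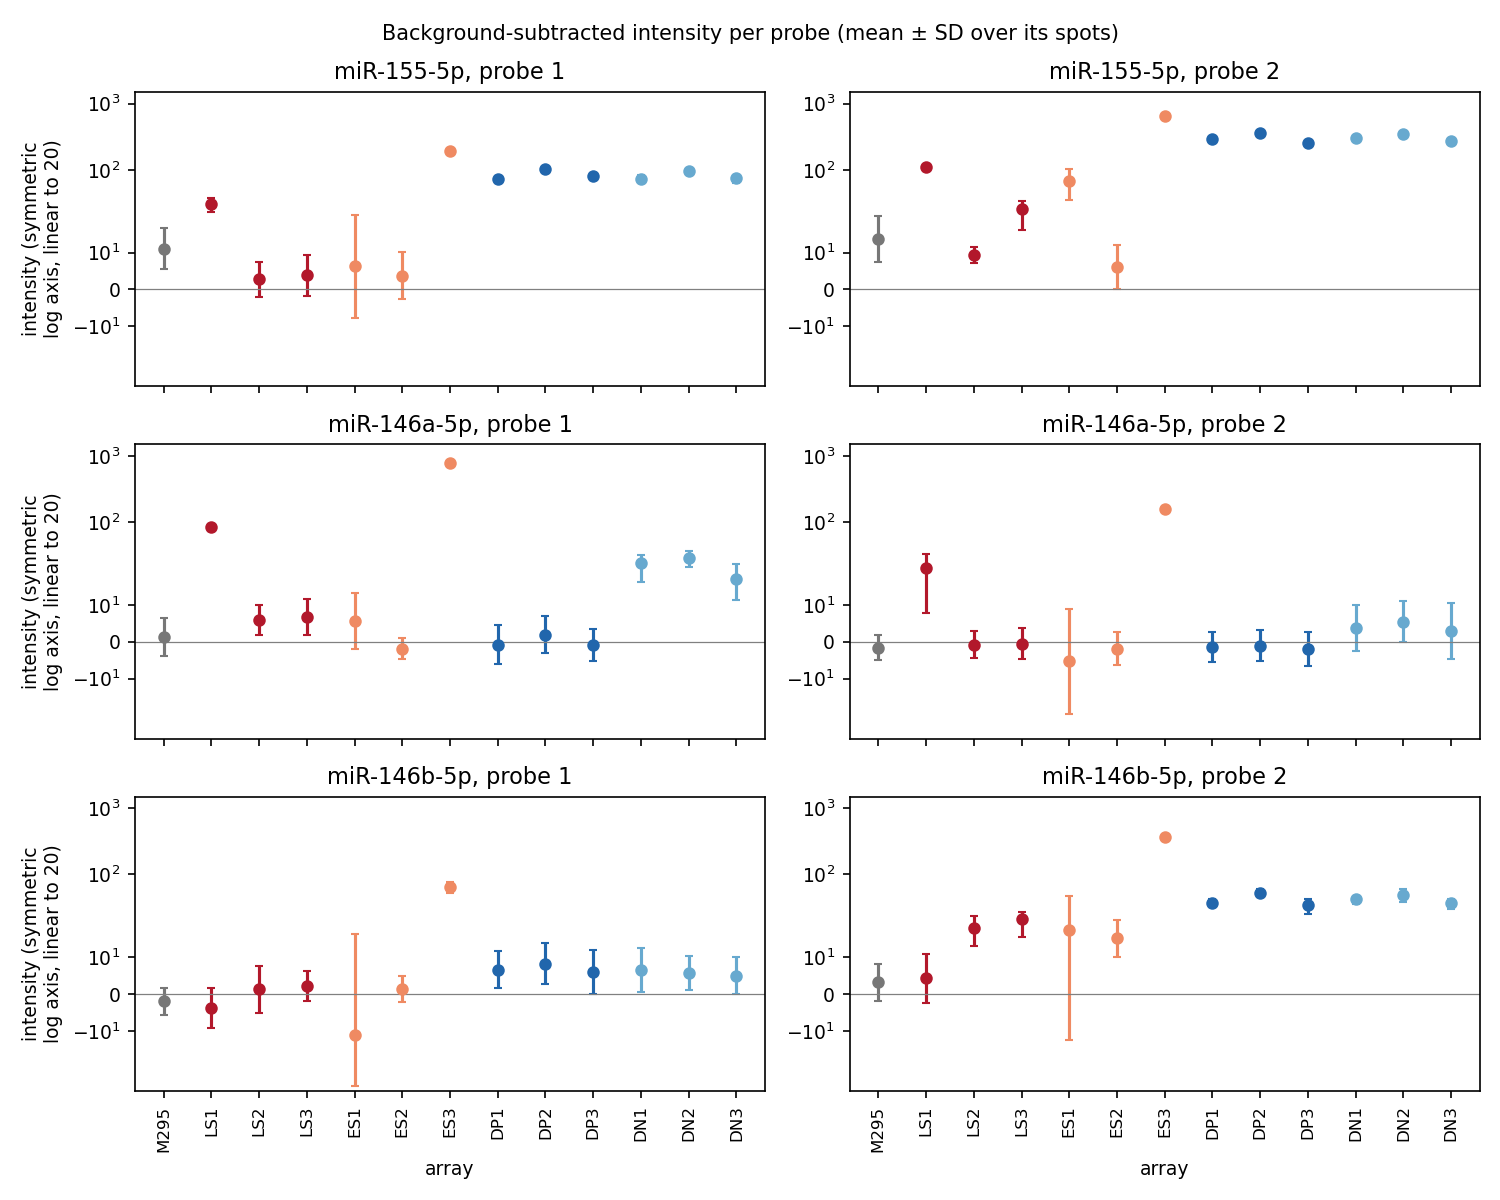
Background-subtracted intensity of each probe of miR-155-5p, miR-146a-5p and miR-146b-5p on each array (mean ± SD over the spots of the probe), on a symmetric log axis that is linear up to 20. Colours mark M295, LS, ES, DP and DN from left to right. The brighter probe of miR-155-5p reads 252 to 360 on the DP arrays and 652 on ES3.

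The miR-146 pair differs at 2 bases, and the arrays hold cases where one was measured without the other. On LS1 miR-146a-5p had an intensity of 52.3 and miR-146b-5p of 0.236. On the DP arrays miR-146b-5p was above background at 19.99 to 30.7 while miR-146a-5p read -1.37 to 0.412. ES3 carried both. These values set neither miRNA's level against the other, since probes differ in brightness.

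The balance between members was compared as the difference of 2 log2 signals on the same array. miR-155-5p minus miR-146a-5p averaged 0.56 ± 0.92 in T-ALL and 4.06 ± 0.27 in thymocytes (SD, n = 6 each). miR-155-5p minus miR-146b-5p averaged 1.06 ± 1.22 in T-ALL and 3.01 ± 0.06 in thymocytes. miR-146a-5p minus miR-146b-5p averaged 0.51 ± 1.07 in T-ALL and -1.05 ± 0.27 in thymocytes. In all 3, the T-ALL and thymocyte arrays did not overlap, ES3 included, and each two-sided exact permutation test gave p = 0.00216 (adjusted 0.00216), the smallest that 924 splits allow. These calls depend on the common floor, at which 2 floored members differ by 0: without it, the adjusted p of the exact permutation tests was 0.429, 0.465 and 0.465.

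On ES3, the T-ALL array on which all 3 members were above background, miR-155-5p minus miR-146a-5p was -0.16, against 3.70 to 4.31 on the thymocyte arrays, where miR-146a-5p was not above background. Its miR-155-5p minus miR-146b-5p was 0.96, against 2.92 to 3.07 on the thymocyte arrays.

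The cell line M295 carried none of the 3 above background. Its log2 signal minus the mean of the 6 T-ALL arrays was -1.72 for miR-155-5p, -1.30 for miR-146a-5p and -0.79 for miR-146b-5p. For miR-155-5p it lay within their range. For the miR-146 pair M295 was at the floor, as were T-ALL arrays, so it could not lie below their range. Those differences reflect the T-ALL arrays that were off the floor. With 1 array there is no test. Its myeloid markers were both not above background.

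**Figure D4:**
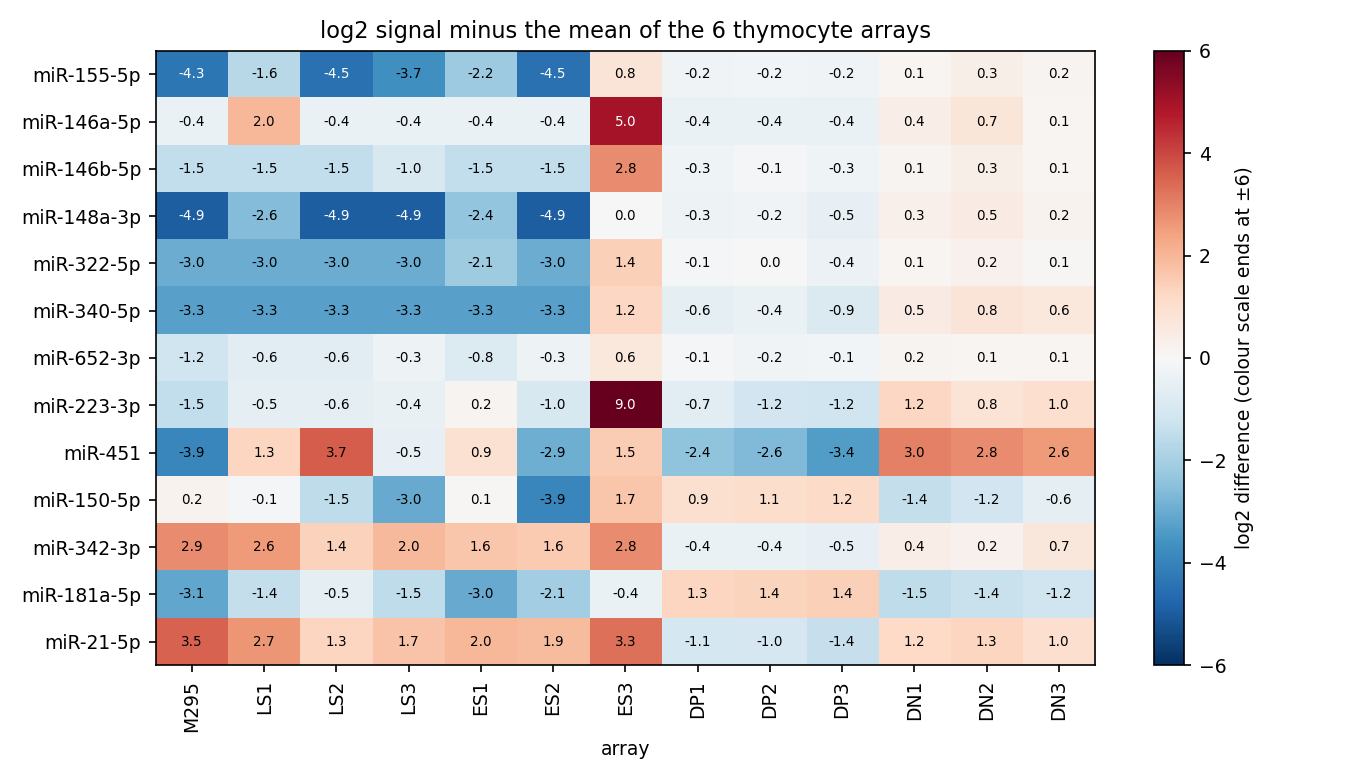
Log2 signal minus the mean of the 6 thymocyte arrays, for the 3 members, the miRNAs most like them and cell type markers, on each of the 13 arrays. Values at the floor bound the difference, except for miR-146a-5p, for which the DP arrays in the thymocyte mean were at the floor too. ES3 is above the thymocyte mean for all 3 members and has the highest miR-223-3p, at a log2 signal of 2.85.

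The miRNAs whose log2 signals followed a member most closely over the 12 primary arrays were taken from 185 tested miRNAs above background on at least 6 arrays. These correlations are descriptions over arrays that share groups, slides and depth. For miR-155-5p they were miR-148a-3p (Pearson r = 0.984, Spearman rho = 0.931), miR-322-5p (r = 0.922, rho = 0.952) and miR-340-5p (r = 0.897, rho = 0.959). Without the 2 arrays farthest from the median, ES2 and LS2, r was 0.976, 0.928 and 0.919. Like miR-155-5p, miR-148a-3p was above background on LS1, ES3 and all thymocyte arrays, and on no other.

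For miR-146b-5p the closest were miR-652-3p (r = 0.920, rho = 0.954), miR-322-5p (r = 0.876, rho = 0.955) and miR-340-5p (r = 0.860, rho = 0.974). Without ES3 and ES1, r was 0.916, 0.967 and 0.977. miR-322-5p and miR-340-5p thus appear beside both miR-155-5p and miR-146b-5p. For miR-146a-5p, r was 0.873 with miR-1224-5p, 0.846 with miR-1894-3p and 0.789 with miR-148b-3p (rho = 0.468, 0.343 and 0.834). Without ES3 and LS1 these were 0.00, -0.28 and 0.63, so the first 2 rest on those arrays. For the third, the arrays of miR-146a-5p then left off the floor were those of DN, none above background. Its r of 0.63 thus describes signal that was not above background.

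**Figure D5:**
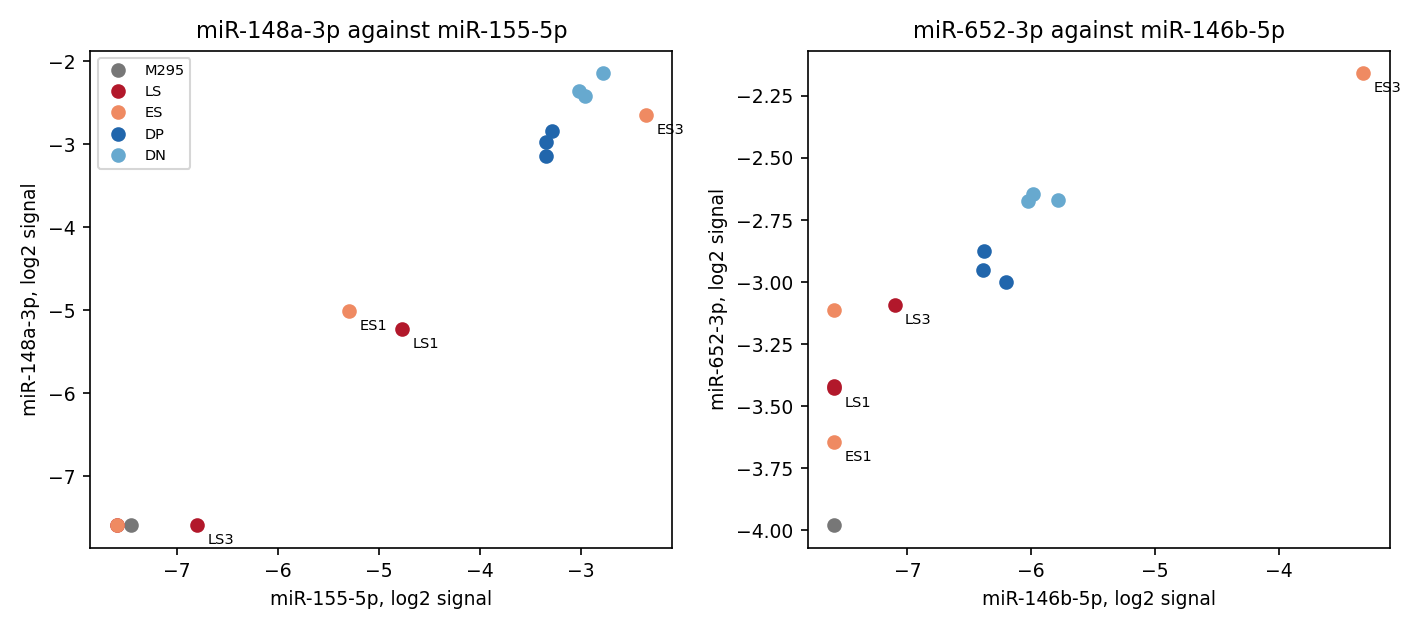
Log2 signal of miR-148a-3p against miR-155-5p (left) and of miR-652-3p against miR-146b-5p (right), 1 point per array, coloured by group. M295 is drawn but was not used in the correlations of 0.984 and 0.920 over the 12 primary arrays. Points at -7.59 are at the floor.

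Among the members themselves, miR-155-5p and miR-146b-5p had r = 0.747 over the 12 arrays (rho = 0.934) and 0.864 without ES3. miR-146a-5p and miR-146b-5p had r = 0.726 (rho = 0.560) and 0.01 without ES3. miR-155-5p and miR-146a-5p had r = 0.412 (rho = 0.680) and 0.263 without ES3. Within the shared seed, the Pearson r of the miR-146 pair thus depended on ES3. The 11 arrays without ES3 still hold LS1, with miR-146a-5p at -5.18 and miR-146b-5p at the floor. Most of their values of miR-146a-5p are at the floor, so the r of 0.01 does not show that the pair is unlike.

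A list of 28 miRNAs linked to lymphocyte activation or NF-kB, which holds the 3 members, had 18 tested and 5 above background on no array. In T-ALL against thymocytes 1 was called higher and 3 lower (median log2 difference -0.15), where 31.4% of all tested miRNAs were called higher and 25.8% lower. miR-21-5p, which represses Pdcd4, was higher (log2 2.14, SE 0.29, limma adjusted p = 3.2e-04). miR-155-5p, miR-181b-5p of the thymocyte-rich miR-181 family (-0.82, limma adjusted p = 0.00564) and miR-301a-3p, known in human cells to repress the NF-kB inhibitor NKRF (-0.43, limma adjusted p = 0.0126), were lower. miR-21-5p and miR-155-5p, both known to be induced on activation, were thus called in opposite directions.

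By stage, ES against DP had 2 of the 18 higher and 2 lower, against 21% and 25.3% of all tested miRNAs, with a list median of 0.20. LS against DP had 2 higher and 4 lower, against 32.3% and 26.2%, with a list median of -0.15. Higher in both were miR-21-5p (3.55 in ES and 3.03 in LS) and miR-29b-3p, which represses DNA methyltransferase transcripts (1.60 in ES and 1.17 in LS). Lower in both were miR-181b-5p (-1.91 in ES and -1.06 in LS) and miR-301a-3p (-0.48 in ES and -0.68 in LS). LS also had lower miR-155-5p and miR-27a-3p (-1.54, limma adjusted p = 0.0358).

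LS against DN had none of the list higher and 2 lower, miR-155-5p and miR-27a-3p (-1.94, limma adjusted p = 0.0221), where 25.8% of all tested were called higher and 7.42% lower. DP against DN had 1 higher, miR-181b-5p (1.33), and 2 lower, miR-21-5p (-2.31) and miR-29b-3p (-1.69), against 18.8% and 10.5% of all tested. No list member was called in LS against ES or ES against DN, where 2.62% and 6.55% of all tested miRNAs were called. The comparisons with DP share their DP arrays, and those with DN their DN arrays.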

How the data were processed

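Total RNA was labelled with Cy3 and hybridised to 1-colour Agilent arrays under miRBase 18.0 names, and images were read with Feature Extraction 10.7.3.1, per the file headers. The scanner files deposited by the authors give an intensity per spot, background-subtracted and not scaled between arrays. The authors' deposited values are on the log2 scale; the columns share a median of 3.29 and keep the rank order of the same array's total signal, and were taken as quantile normalized. Its centring and exact steps stay unknown. Per the submitters' processing notes, the tools were RMA, MAS5, GCOS and affy, with no role stated.

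After removal of control and outlier spots (4.03 to 8.60% of spots), linear means were taken over spots and then over a miRNA's probes. The scaling divisor was the 75th percentile of 108 miRNAs that all 12 primary arrays measured, followed by a floor of -7.59 (log2). Above background means that the software marked 50% or more of the kept spots for 1 probe or more. The 229 miRNAs above background on all 3 arrays of a group were fitted in limma 3.58.1 (R 4.3.3, with data.table, version 1.17.8) over the 12 primary arrays with 1 mean per group, with Benjamini-Hochberg adjustment and a threshold of 0.05, and the steps were tested on simulated data. M295 was left out of the fit. A bound, written as at least N-fold, sets the lower group's arrays to the higher of their value and the lowest signal above background there. Where arrays of the higher group were at the floor, as for miR-146a-5p, or not above background, the fold is not a bound. Slides 1 and 2 hold 7 and 6 arrays and were tested as batches. By the correlation of deviations from group means, replicate numbers paired LS with DP arrays (0.18 to 0.50), and no other pair of groups. The labels do not say what a number marks. The number of arrays limits precision.

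Named were the members, their 3p arms, the 3 most correlated miRNAs of each, miRNAs with the same seed, and called members of the activation list. The members and lists were chosen with earlier results of these data known. The alternatives were other scalings, normexp with an offset of 50 on the median signals (this file type lacks the mean signal), no floor, all miRNAs tested, slide and replicate blocks, an intensity trend, single probes and leaving out each array.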

Additional observations from a re-analysis of the deposited data

Results flagged for a closer look

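miR-146b-5p on ES3 had a log2 signal of -3.32, far from the other 5 T-ALL arrays, of which the next highest was LS3 at -7.10. The other 4 were at the floor, which sets much of the gap. For values without such ties chance marks about 1 in 20 groups, a rate that does not apply here. On ES3 miR-223-3p stood at 2.85, and its part in the level of miR-146b-5p was not tested.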

How the results depend on the processing

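Leaving out each array in turn gave these ranges of log2 difference. For miR-155-5p it was -3.30 to -1.99 in T-ALL against thymocytes (-3.29 to -2.24 in the permutation test), -3.12 to -0.50 in ES against DP, -3.88 to -2.46 in LS against DP, -2.56 to 0.056 in LS against ES, -3.53 to -0.91 in ES against DN and -4.28 to -2.87 in LS against DN. For miR-146b-5p it was -1.38 to -0.31 in T-ALL against thymocytes (-1.37 to -0.51 in the permutation test), -1.27 to 0.87 in ES against DP, -1.27 to -1.02 in LS against DP, -1.98 to 0.16 in LS against ES, -1.66 to 0.48 in ES against DN and -1.66 to -1.42 in LS against DN. The numbers of miRNAs called ranged over 70 to 120 in ES against DP (106 with all arrays), 1 to 55 in LS against ES (6), 44 to 101 in DP against DN (67), 0 to 39 in ES against DN (15; limma called 0 without any 1 DN array, with 37 to 45 at an unadjusted p under 0.05) and 33 to 117 in LS against DN (76). The highest counts for LS against ES, DP against DN and LS against DN came without ES3 (55, 101 and 117). With normexp, miR-155-5p in T-ALL was at -1.003 (permutation adjusted p = 0.0649), miR-146a-5p minus miR-146b-5p at 0.31, and miR-146b-5p turned to 0.088 in T-ALL against thymocytes and 0.24 in ES against DN. It called 43 miRNAs in DP against DN, 46 in LS against DN and, by limma, 0 in ES against DN (39 at an unadjusted p under 0.05). Without the floor, miR-155-5p minus miR-146a-5p was -4.48, miR-155-5p minus miR-146b-5p -1.08, miR-146a-5p minus miR-146b-5p 3.40, miR-155-5p -3.72 in LS against DN (adjusted p = 0.0641) and -3.32 in LS against DP (adjusted p = 0.0667), and miR-146b-5p -0.31 in ES against DP, with 43 called in DP against DN and 5 in ES against DN. With all mouse miRNAs tested, where more features are adjusted over, miR-155-5p had limma adjusted p = 0.124 in T-ALL (-2.62), 0.221 in LS against DP (-3.07) and 0.269 in LS against DN (-3.47), with 1 called in ES against DN, 21 in LS against DN and, by limma, 0 in LS against ES (42 at an unadjusted p under 0.05). With the slide as a block, miR-155-5p was -2.76 in LS against DP and -3.17 in LS against DN, and miR-146b-5p 0.18 in ES against DN, with 9 called in ES against DN and 3 in LS against ES. Within slide 1, the differences of miR-155-5p were -3.13 in T-ALL, -2.84 in LS against DP, -3.16 in LS against DN and 0.26 in LS against ES, those of miR-146b-5p -1.41 in T-ALL, -1.21 in ES against DP and LS against DP and -1.61 in ES against DN and LS against DN, and those of the member pairs -3.32, -1.72 and 1.60. Within slide 1, 30 miRNAs were called in T-ALL, 29 in ES against DP, 56 in LS against DP, by limma 0 in LS against ES (56 at an unadjusted p under 0.05), 18 in DP against DN, 3 in ES against DN and 3 in LS against DN. Within slide 2, miR-155-5p was -1.49 in T-ALL, 0.96 in ES against DP, 0.51 in ES against DN, -4.45 in LS against ES and -0.45 in DP against DN, miR-146b-5p 0.89 in T-ALL, 2.98 in ES against DP, 2.59 in ES against DN, -0.81 in LS against DP, -1.20 in LS against DN and -3.79 in LS against ES, and the member pairs -3.78, -2.38 and 1.40. Within slide 2, 165, 114, 123, 137 and 118 miRNAs were called in ES against DP, LS against ES, DP against DN, ES against DN and LS against DN. The smallest p that the permutation of one slide allows is 0.0667, so those tests could not pass. The replicate block over all 12 arrays changed no call of a member (miR-155-5p in T-ALL, adjusted p = 0.0173) and gave 6 called in ES against DN and 3 in LS against ES. The replicate block in the DP and LS arrays alone, chosen after seeing the data, made miR-146b-5p (-1.10) pass in LS against DP. The percentile over all miRNAs called 42 and quantile normalization 27 in ES against DN, and quantile normalization 2 in LS against ES. With the percentile over all miRNAs, the median difference of all tested miRNAs in ES against DP was 0.59 in place of 0.07, and the share of calls that were higher was 70.9% in place of 45.3%. The same change gave 0% in place of 83.3% in LS against ES, 50% in place of 64.2% in DP against DN, 95.2% in place of 60% in ES against DN and 55.8% in place of 77.6% in LS against DN. Quantile normalization gave 44.1% in place of 55.2% in LS against DP. miR-155-5p stayed lower in T-ALL under every scaling run, from -3.13 to -1.003 over these alternatives. The causes were not tested. On most T-ALL arrays the members were not above background, so their signal over background limits how large a difference can be measured.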
